A study of Rattus norvegicus with 44 samples.

Results

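The kidney cortex of male rats labelled heterozygous at Xdh was compared between postnatal day (PND) 21 and PND15. The comparison used 8 of the 44 libraries of the series, 4 labelled PND15_Het and 4 labelled PND21_Het, and every gene with at least 1 FPKM in 3 or more of them. FPKM is the number of reads on a gene per kilobase of its length, scaled to the size of the library. The rule kept 14256 of 32545 genes, 13181 of them protein coding, and 10535 genes were at 0 in all 8 libraries. Xdh codes for xanthine dehydrogenase, which makes urate at the end of purine breakdown. The labels give the genotype as Het without naming the kind of allele or the rat strain (neither was given in the sources used here), and they name no treatment. Cortex of animals labelled wild type (WT) at the same ages, 4 at PND15 and 3 at PND21, shared the estimate of spread and served for comparison. Whole litters were collected, with no label saying which animals shared a litter, so the p-values below measure only the spread between these samples.

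In the first weeks after birth the rat kidney ends its phase of nephron formation, and the pups later move from milk, which is rich in fat, to solid food. In this period the proximal tubule gains its carriers for phosphate, organic anions and amino acids, the loop and distal tubule gain the power to concentrate urine, and daily rhythms of clock genes become strong in many organs. Glutathione, made from glutamate, cysteine and glycine by the ligase of which Gclc is the catalytic subunit, is turned over quickly in the proximal tubule. Slc51a and Slc51b form a carrier that moves bile acids and steroid conjugates across the basal membrane of epithelia.

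The 8 libraries held 13643981 to 16993071 reads counted on genes. The nephron segments expected in cortex were present at both ages. Lrp2, the endocytic receptor megalin of the proximal tubule, averaged 232 ± 19.2 FPKM at PND15 and 246 ± 51.8 at PND21 (SD, n = 4 each). Umod, the main protein of the thick ascending limb, averaged 1012 and 1305 FPKM, Slc12a3, the salt carrier of the distal convoluted tubule, 82.2 and 91.8, and Aqp2, the water channel of principal cells, 180 and 217. The PND15 mean of Aqp2 rests on replicate 2, at 408 FPKM against 93.2 to 122 in the other 3. Without it the mean was 103, and the ratio of PND21 to PND15 went from 1.21 to 2.11. The PND21 libraries also ranged widely, at 102.9, 308.5, 225.7 and 232.7 FPKM. PND21_Het replicate 1 lay within the range of those other 3 PND15 libraries. In bulk tissue, fewer cells of a type and less RNA per cell cannot be told apart.

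One library stood apart from its group. PND15_Het replicate 2 lay at least 1 log2 unit beyond the other 3 libraries of its group in 303 of 11026 genes, 137 above and 166 below; in the other 7 libraries this count was 27 to 63. Akr1b1, aldose reductase, which is abundant in the inner medulla, was at 341 FPKM there and at 32.0 to 32.6 in the other 3, and Psca, a surface protein of urothelium, at 70.9 against 0.698 to 2.74. Of the 19 medulla genes 7 lay above the others in this library and 0 below, of the 8 urothelium genes 6 and 0, of the 26 principal cell genes 7 and 1, and of the 43 cell cycle genes 0 above and 26 below. These genes were chosen after their values were seen. Raised Akr1b1 was also present in PND15_WT replicates 3 and 4, at 365 and 300 FPKM, and in PND21_Het replicate 2, at 115.7. The 12 matched urothelium genes summed to 134.9 FPKM in PND15_Het replicate 2 and to 3.58 to 15.3 in the others of its group. In the PND21_Het libraries they summed to 6.467, 89.91, 66.84 and 28.1 FPKM. The share of medulla or urothelium in each sample, and its part in the results, was not tested. For the lists of genes described below, counts are given with and without this library.

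**Figure D1:**
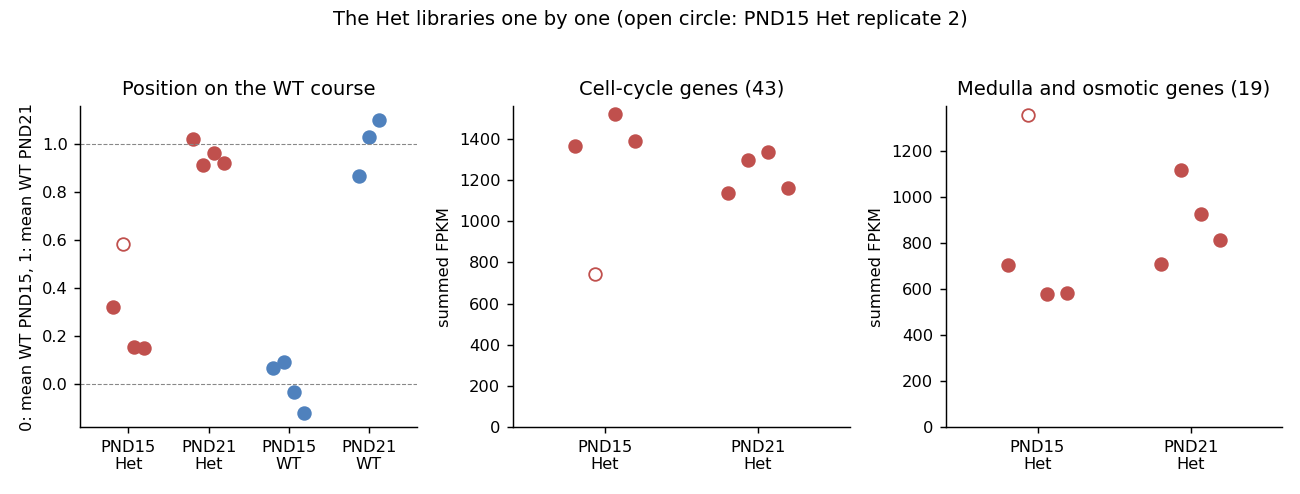
Left, position of each library on the WT course, from 0 at the WT mean of PND15 to 1 at that of PND21. The course holds 890 genes higher and 617 lower at PND21 in WT by at least 0.5 log2. Middle and right, summed FPKM of the 43 cell cycle genes and of the 21 matched medulla genes (the panel title gives the 19 tested). Each point is 1 library (red Het, blue WT), and the open circle, PND15_Het replicate 2, lies at 0.584 on the course, at 742.8 FPKM for cell cycle genes (other PND15_Het libraries 1366 to 1521) and at 1359 for medulla genes (580.3 to 707.6).

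From PND15 to PND21, 2838 genes changed (19.9% of those tested; limma with Benjamini-Hochberg adjustment, called at an adjusted p under 0.05). Of these 1834 rose (12.9%) and 1004 fell (7.04%). Most changes were small: the median was 0.43 log2 among genes that rose and -0.41 among those that fell, and 111 genes rose and 54 fell by at least 1 log2 unit. All differences are of log2(FPKM + 1), which understates the change of low genes. The libraries of the 2 ages did not overlap in 2782 genes (19.5%), 2172 of them called.

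The number called and its direction depended on PND15_Het replicate 2 and on the scaling. Without that library 4226 genes were called (29.6%), 2475 up (17.4%) and 1751 down (12.3%), among them 2628 of the 2838. The deposited FPKM summed to 559956 to 602576 per library at PND15 and to 664691 to 718285 at PND21. The 100 genes of highest FPKM took 31.3% to 33.8% of that sum at PND15 and 36.6% to 38.2% at PND21. With every library rescaled to the same sum (TPM) the median of all genes moved from 0.02 to -0.21 log2, and 572 genes rose (4.01%) and 4775 fell (33.5%). The deposited scale therefore calls more rises and TPM more falls, and counts on both scales are given for the lists of genes described below. Each count is to be read beside the share of all genes called with the same scale and libraries.

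Xdh itself (ENSRNOG00000007081, chromosome 6, 25149235 to 25211494, minus strand) was at 8.95, 13.2, 11.2 and 10.4 FPKM in the PND15 libraries and at 17.9, 9.70, 12.2 and 13.0 at PND21. The ages overlapped. PND21 minus PND15 came to 0.23 ± 0.15 log2 (SE), with an adjusted p of 0.291 in limma and 0.314 in a two-sided exact permutation test the smallest that 4 against 4 libraries allow is 0.0286; adjusted over the 3 single values tested, 0.314). The build of this and the other positions below was not given in the sources used here (labels and file). In WT the mean went from 15.7 to 24.2 FPKM, a rise of 0.59 log2 (limma adjusted p = 0.0204). The change in Het minus that in WT was -0.36 log2 with a 95% interval from -0.83 to 0.10, and was not called.

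The largest rises were led by enzymes and carriers of the tubule and by globins. Selenbp1, a methanethiol oxidase that binds selenium, was at 12.5, 3.14, 2.32 and 2.93 FPKM at PND15 and at 37.2, 28.1, 95.8 and 92.2 at PND21. Every PND21 library lay above every PND15 library, and replicate 1 was the highest of its age at PND15. The rise was 3.44 ± 0.50 log2, 12.1-fold in the means (limma adjusted p = 0.00101). Cyp4a8, a fatty acid hydroxylase of the kidney (ENSRNOG00000008842, chromosome 5, 133978954 to 134008255, minus strand), was at 1.85, 1.43, 1.15 and 1.13 FPKM and then at 13.7, 27.9, 29.4 and 18.8. The ages stood far apart, with a rise of 3.24 ± 0.31 log2 (16.1-fold, adjusted p = 0.000138). Akr1c1, a hydroxysteroid dehydrogenase, rose by 2.26 log2 and the related Akr1c12l1 by 2.20. Tlr12, a receptor of innate immunity, rose by 2.03 log2 and Alox15, a lipoxygenase, by 2.07. The Cyp4a, Akr1c, Gsta, Klk1c, globin and RT1 genes have close copies that can share reads, and their split within a family is uncertain.

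The largest falls held genes of fuel use and of the growing kidney. Angptl4, a secreted inhibitor of lipoprotein lipase that is induced in fasting, was at 23.3, 4.17, 23.9 and 33.8 FPKM at PND15 and at 2.49, 2.39, 2.99 and 1.55 at PND21. PND15_Het replicate 2 was the lowest of its age but still above every PND21 library. The fall was -2.45 ± 0.45 log2 (limma adjusted p = 0.00344), and -3.06 without that library. Pdk4, the kinase that shuts off pyruvate dehydrogenase when fat is burned, was at 37.7, 15.9, 45.3 and 59.8 FPKM and then at 8.20, 6.95, 9.61 and 7.34. The ages did not overlap, and the fall was -2.04 ± 0.31 log2 (adjusted p = 0.00141). Dcdc2, a protein of cilia, fell to 0.384 times its PND15 mean, Vcan, the matrix proteoglycan versican, to 0.324 times, Nptx2, a pentraxin, to 0.261 times and Epha3, an ephrin receptor, to 0.306 times.

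**Figure D2:**
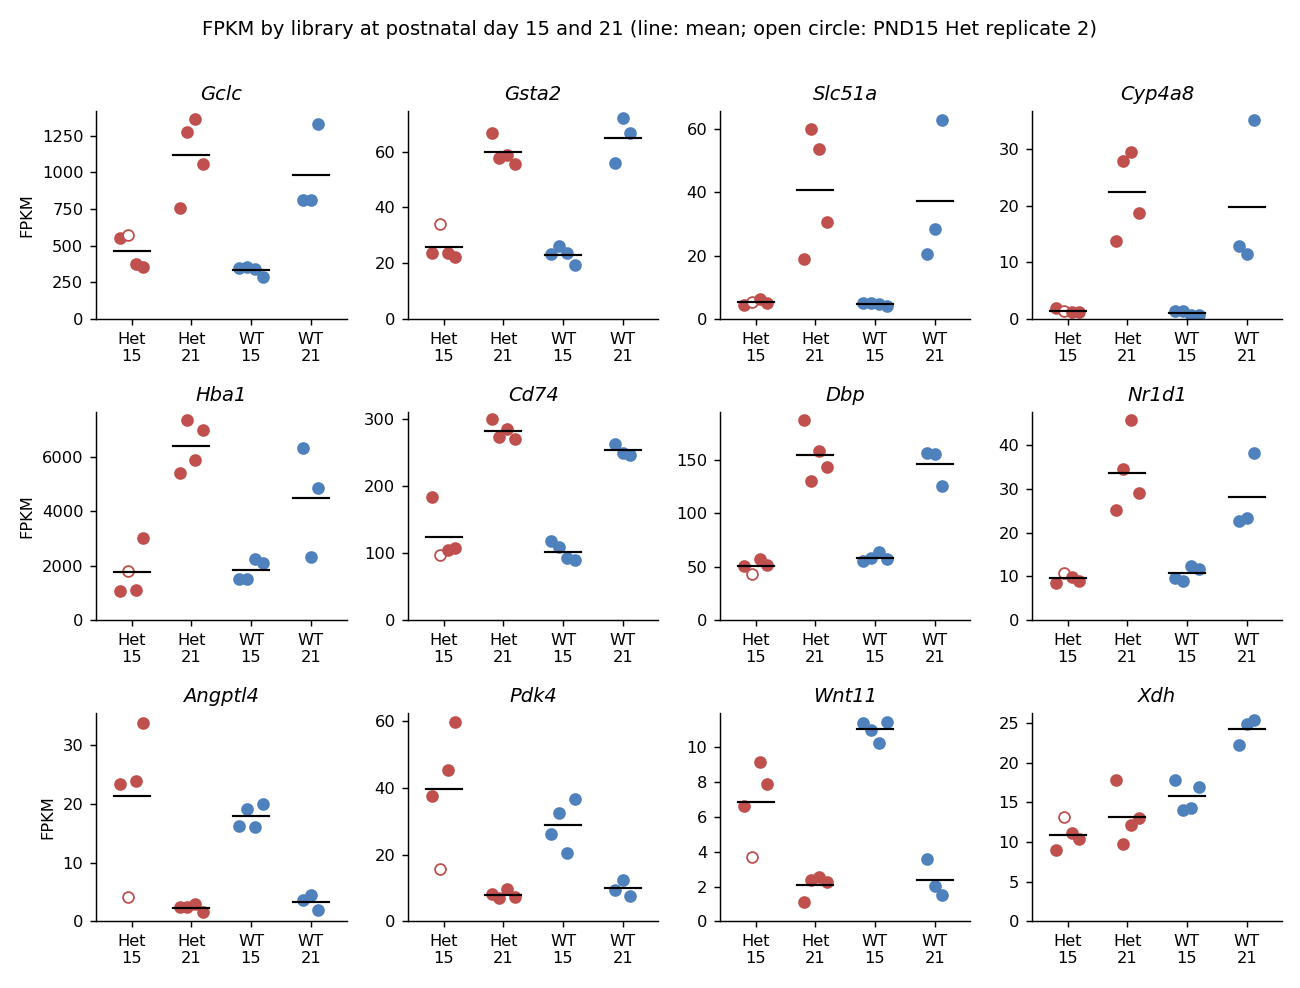
FPKM of 12 genes in each library (linear axes from 0; red Het, blue WT; points are libraries, lines are group means, the open circle is PND15_Het replicate 2). Slc51a in Het lies at 4.41 to 6.38 FPKM at PND15 and at 18.8 to 60.0 at PND21, while Angptl4 and Pdk4 are lower at PND21, with PND15_Het replicate 2 the lowest of its age.

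Genes of glutathione synthesis and of the response driven by NRF2, the transcription factor of oxidant defence, rose. Of 31 listed genes 13 rose and 0 fell (median 0.35 log2, against 0.02 for all genes); without PND15_Het replicate 2 the counts were 24 and 0, and with TPM 11 and 5. Gclc (ENSRNOG00000006302, chromosome 8, 85059051 to 85097468, plus strand) was at 553, 572, 377 and 355 FPKM at PND15 and at 758, 1276, 1367 and 1060 at PND21. All PND21 libraries were higher than all PND15 libraries, though PND21 replicate 1 was much nearer to them than the others. The mean went from 464 ± 114 to 1116 ± 271 (SD, n = 4 each), 2.40-fold or 1.26 ± 0.21 log2 (limma adjusted p = 0.00194). Gclm, the modifier subunit of the same ligase, rose 1.67-fold and Gss, glutathione synthetase, 1.81-fold. Osgin1, a growth inhibitor induced by oxidised lipids, was at 42.9, 52.2, 30.2 and 34.3 FPKM and then at 92.6, 88.3, 106 and 92.1, a rise of 1.25 log2 without overlap. Gsta2, a glutathione transferase, rose 2.30-fold.

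Promoter windows of 300 bases, from 250 before to 50 after the gene start, were read from RefSeq (assembly GRCr8) for 28 of the 31 genes. The core of the antioxidant response element, TGACNNNGC on either strand, was in 11 of the 28, in 4 of the 13 that rose (Ephx1, Gclm, Gsta2 and Me1) and in 7 of the 15 others matched. It was in 13.1% of all genes with a window. The windows shown are those of the pair of called listed genes with the smallest p. One holds the core and the other does not. The capitals mark the core, in Gsta2 at 37 bases after the start on the complementary strand. They lie at chr8:88077043-88077342 on the minus strand (Gsta2) and chr19:64393651-64393950 on the plus strand (Osgin1), each written 5′ to 3′ along its gene.
Gsta2: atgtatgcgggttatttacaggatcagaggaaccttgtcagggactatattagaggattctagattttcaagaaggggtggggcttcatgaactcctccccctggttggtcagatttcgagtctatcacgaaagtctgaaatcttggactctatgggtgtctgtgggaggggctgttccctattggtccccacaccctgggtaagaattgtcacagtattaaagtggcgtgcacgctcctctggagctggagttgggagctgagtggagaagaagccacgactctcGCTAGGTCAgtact
Osgin1: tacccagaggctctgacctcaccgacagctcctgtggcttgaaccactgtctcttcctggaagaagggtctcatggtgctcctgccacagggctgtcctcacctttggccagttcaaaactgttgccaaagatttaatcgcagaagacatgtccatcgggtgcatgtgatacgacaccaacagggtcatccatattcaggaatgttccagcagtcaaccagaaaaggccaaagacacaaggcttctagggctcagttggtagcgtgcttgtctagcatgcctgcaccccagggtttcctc
The absence of the core from the Osgin1 window says only that these letters are not in it.

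Bile acid and steroid handling rose in 10 of 19 genes and fell in 1, the steroid sulfate carrier Slc10a6 (median 0.44 log2; without PND15_Het replicate 2, 12 and 2; with TPM, 8 and 3). Slc51a (ENSRNOG00000001765, chromosome 11, 71533078 to 71547476, plus strand) was at 4.41, 5.35, 6.38 and 4.87 FPKM at PND15 and at 18.8, 60.0, 53.7 and 30.7 at PND21. The PND15 libraries were close to each other, and the PND21 libraries all lay above them but spread over a wide range. The rise was 2.62 ± 0.35 log2, 7.77-fold (limma adjusted p = 0.000605). At PND21 its partner Slc51b had the same order of libraries; it was at 12, 14.7, 12.4 and 13.2 and then at 21.7, 49.7, 43.2 and 36.7 FPKM (1.41 log2). Baat, which joins bile acids to taurine and glycine, rose 3.57-fold, and Slco1a6, an uptake carrier, 1.90-fold.

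Among proximal tubule genes for transport and endocytosis 16 of 38 rose and 1 fell, Slc5a8, a monocarboxylate carrier (median 0.30 log2; without PND15_Het replicate 2, 20 and 1; with TPM, 9 and 3). Slc13a1, the sulfate carrier, rose 1.90-fold, Slc23a1, a vitamin C carrier, 1.55-fold, and Pdzk1, a scaffold of the brush border, 1.37-fold. Slc34a1, the main phosphate carrier, went from 1588 ± 99.8 to 1979 ± 288 FPKM (0.31 log2, limma adjusted p = 0.047); the call was lost without PND15_Het replicate 2 (adjusted p = 0.0766) and with TPM (adjusted p = 0.718). Lrp2 and Slc5a2, the main glucose carrier, were not called (0.07 and 0.17 log2). The palindrome bound by HNF1, a factor of tubule genes, was searched on both strands and was in 0 of the 36 windows matched and in 1 of all 33469 windows.

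Urate and organic ion carriers rose in 8 of 20 genes and fell in 0 (median 0.36 log2; without PND15_Het replicate 2, 11 and 0; with TPM, 4 and 1). Slc22a7, an organic anion carrier, was at 9.89, 5.31, 7.85 and 7.05 FPKM and then at 15.3, 18.0, 16.7 and 13.3, with no overlap (1.0 ± 0.15 log2, limma adjusted p = 0.00103). Slc22a13 rose 1.74-fold and Slc22a12, the urate carrier URAT1, 1.44-fold, the latter not called with TPM (adjusted p = 0.0883). Of 26 purine genes 9 rose and 2 fell (median 0.09 log2; without PND15_Het replicate 2, 8 and 2; with TPM, 4 and 4). Pnp, which splits purine nucleosides ahead of Xdh, rose 1.23-fold, not called with TPM, while Pfas and Impdh1, of new purine synthesis, fell to 0.773 and 0.630 times.

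Oxidative phosphorylation was the list with the most members called: 36 of 40 nuclear genes rose and 0 fell (median 0.41 log2), 37 and 0 without PND15_Het replicate 2, but 11 and 0 with TPM (median 0.16). Cox8a, a subunit of cytochrome oxidase, was at 936, 987, 920 and 939 FPKM at PND15 and at 1290, 1444, 1365 and 1268 at PND21. The libraries within each age were close to each other and the ages did not overlap (0.50 ± 0.08 log2, limma adjusted p = 0.000976; 0.25 with TPM). Esrra, a nuclear receptor of mitochondrial genes, rose 1.42-fold. Genes of mitochondrial DNA took 8.92 ± 0.927% of reads at PND15 and 10.9 ± 0.587% at PND21 (SD, n = 4 each), without overlap (two-sided exact permutation p = 0.0286, 0.0429 adjusted over the 3 single values). As a share of summed FPKM the p was 0.0571 (exact permutation, adjusted 0.0857).

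Amino acid and one-carbon metabolism rose in 20 of 37 genes and fell in 0 (median 0.45 log2; without PND15_Het replicate 2, 28 and 0; with TPM, 8 and 1). Aadat, which transaminates aminoadipate and kynurenine, was at 542, 512, 482 and 434 FPKM and then at 870, 1328, 1227 and 1017. PND21 replicate 1 was the lowest of its age and still above all PND15 libraries (1.16 ± 0.14 log2, limma adjusted p = 0.000359). Hao2, a peroxisomal hydroxyacid oxidase, rose 2.27-fold and Dao, D-amino acid oxidase, 1.48-fold. Genes of glucose and sugar metabolism rose in 12 of 29 and fell in 1, Pdk4 (without PND15_Het replicate 2, 16 and 1; with TPM, 8 and 3); Ldhd, D-lactate dehydrogenase, rose 1.74-fold and Sord, sorbitol dehydrogenase, 1.49-fold.

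Fatty acid oxidation and ketone genes moved both ways, 6 up and 6 down of 40 (median -0.02 log2; without PND15_Het replicate 2, 7 and 12; with TPM, 4 and 22). Oxct1, which uses ketone bodies as fuel, rose 2.00-fold, from 154 ± 15.9 to 309 ± 35.9 FPKM (1.0 ± 0.10 log2, adjusted p = 0.000143), and Fabp3, a fatty acid binding protein, rose 1.79-fold. Cholesterol and lipid synthesis rose in 8 of 31 and fell in 0 (median 0.48 log2; without PND15_Het replicate 2, 19 and 0; with TPM, 4 and 0). Fdft1, squalene synthase, rose 1.49-fold and Sc5d, a late desaturase of the pathway, 1.67-fold. Xenobiotic metabolism rose in 14 of 29 and fell in 0 (without PND15_Het replicate 2, 17 and 1; with TPM, 11 and 1), with Akr7a3 at 2.40-fold and Gstt1 at 2.01-fold.

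Of 24 thick ascending limb genes 6 rose and 3 fell (without PND15_Het replicate 2, 8 and 2; with TPM, 4 and 6), and of 23 genes of the distal convoluted and connecting tubule 9 rose and 1 fell (without PND15_Het replicate 2, 10 and 3; with TPM, 5 and 5). Egf, a growth factor made in the distal nephron, was at 45.3, 22.3, 32.5 and 32.3 FPKM and then at 68.1, 81.7, 79.2 and 68.1, without overlap (1.18 ± 0.23 log2, limma adjusted p = 0.00457). Ppp1r1b, the phosphatase inhibitor DARPP-32, rose 4.62-fold. Calb1, the calcium binding protein of the distal tubule, was at 271, 352, 80.3 and 124 FPKM and then at 627, 612, 544 and 691; the PND15 libraries ranged widely, and all lay below PND21 (1.81 ± 0.45 log2, adjusted p = 0.0161). This call was lost without PND15_Het replicate 4. Of the 26 principal cell genes 1 rose, St6gal1, and 2 fell, Tfcp2l1 and Pde10a (without PND15_Het replicate 2, 2 and 4; with TPM, 1 and 11). Of 22 intercalated cell genes 2 rose, Atp6v1g3 and Car2, and 0 fell (7 and 0 without that library; with TPM, 1 and 3). Of 19 medulla genes 1 rose, Tmem213, and 2 fell, Nfat5 and Ptgs2 (3 and 2 without that library; with TPM, 0 and 3). In the renin and kallikrein list of 18 genes 1 rose, Dnase1, a secreted nuclease, and 2 fell, Kng1l1 and Ace, which makes angiotensin II, the latter to 0.579 times (2 and 3 without that library; with TPM, 1 and 6). Dnase1 was at 111 FPKM in PND15_Het replicate 2, 15.3 to 24.6 in the others of its age and 108 to 146 at PND21.

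Red cell genes rose in 10 of 13 and fell in 0 (median 1.48 log2; 10 and 0 also without PND15_Het replicate 2 and with TPM). Hba1, an alpha globin (ENSRNOG00000029886, chromosome 10, 15602794 to 15603649, minus strand), was at 1087, 1803, 1111 and 3019 FPKM at PND15 and at 5392, 7338, 5902 and 6985 at PND21. Replicate 4 was the highest at PND15 but below every PND21 library (1.99 ± 0.34 log2, 3.65-fold, limma adjusted p = 0.00206). Ahsp, the chaperone of free alpha globin, rose 7.26-fold, and Alas2, the first enzyme of haem synthesis in red cells, 2.91-fold. The globin genes took 0.170 ± 0.0904% of reads at PND15 and 0.601 ± 0.0871% at PND21 (two-sided exact permutation p = 0.0286, adjusted 0.0429). Tfrc, the transferrin receptor, fell to 0.662 times.

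Of 36 genes of antigen presentation and the interferon response 25 rose and 0 fell (median 0.50 log2; without PND15_Het replicate 2, 22 and 0; with TPM, 17 and 0). Cd74, the chain that guides MHC class II, was at 184, 97.6, 106 and 107 FPKM and then at 300, 274, 286 and 271. Replicate 1 stood above the other PND15 libraries, and all PND21 libraries were higher still (1.24 ± 0.16 log2, limma adjusted p = 0.000443). B2m, the light chain of class I, rose 1.77-fold and the class II genes RT1-Da and RT1-Bb 2.20-fold and 1.91-fold. Macrophage and dendritic cell genes rose in 11 of 22 and fell in 1, Gpnmb (without PND15_Het replicate 2, 10 and 2; with TPM, 4 and 3). Lyz2, lysozyme, rose 2.49-fold, and Aif1 2.02-fold, and Il34, a ligand of the macrophage growth factor receptor made by tubule cells, 2.91-fold. The summed level of the 34 matched genes of the macrophage list was 803 to 857 FPKM at PND15 and 780 to 1274 at PND21. Of 7 lymphocyte and granulocyte genes 1 rose, Nkg7 (0 without PND15_Het replicate 2 and 0 with TPM). Of 23 genes of complement, coagulation and the acute phase 2 rose, C1qa and F3, and 0 fell (without PND15_Het replicate 2, 5 and 1; with TPM, 0 and 6).

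Genes of endoplasmic reticulum stress and the integrated stress response rose in 12 of 29 and fell in 0 (median 0.23 log2). Without PND15_Het replicate 2 the counts were 16 and 0, and with TPM 3 and 2 (median -0.02). Sdf2l1, a chaperone partner, was at 16.1, 20.2, 24.9 and 17.1 FPKM and then at 31.1, 37.1, 37.1 and 43.3. Manf, a secreted stress factor, was at 72.0, 80.1, 97.2 and 77.2 and then at 107, 128, 135 and 122. The ages did not overlap in Sdf2l1 or Manf (0.90 ± 0.14 and 0.59 ± 0.11 log2; limma adjusted p = 0.00146 and 0.00363). Hspa5, the main chaperone of the endoplasmic reticulum, rose 1.48-fold, not called with TPM. Of 17 heat shock genes 5 rose and 1 fell (without PND15_Het replicate 2, 8 and 1; with TPM, 0 and 1). Of 33 tubular injury genes 1 rose, Il34, and 1 fell, Cdkn1a (without PND15_Het replicate 2, 1 and 3; with TPM, 1 and 13). Havcr1, the injury marker KIM-1, averaged 0.678 times its PND15 level and was not called.

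Clock genes changed in both directions. Of 24 listed genes 9 rose and 3 fell, Arntl, Nfil3 and Cry1 (without PND15_Het replicate 2, 10 and 4; with TPM, 6 and 8). Dbp, an output factor that binds the D-box (ENSRNOG00000021027, chromosome 1, 101687855 to 101692846, plus strand), was at 50.2, 43.2, 57.1 and 51.6 FPKM and then at 187, 130, 158 and 143. Nr1d1, the repressor REV-ERB alpha (ENSRNOG00000009329, chromosome 10, 86683875 to 86690815, minus strand), was at 8.51, 10.8, 9.88 and 9.08 and then at 25.2, 34.6, 45.8 and 29.1. In both genes the PND15 libraries lay close together and every PND21 library lay well above them. The PND21 libraries ranged more widely, from 25.2 to 45.8 FPKM in Nr1d1. The rises were 1.59 ± 0.11 log2 for Dbp and 1.69 ± 0.18 for Nr1d1 (limma adjusted p = 1.32e-05 and 0.000184). Tef rose 1.64-fold, Nr1d2 1.54-fold and Per2 1.46-fold, the last not called with TPM. Arntl, the activator BMAL1, was at 6.39, 12.5, 5.74 and 8.06 FPKM and then at 2.68, 4.88, 3.33 and 3.8, a fall of -0.94 log2 without overlap. Nfil3, the repressor at the D-box, fell to 0.417 times. No label gives the hour at which an animal was killed, so age and hour of collection cannot be told apart.

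Promoter windows were matched for 18 of the 24 clock genes. The E-box CACGTG, to which BMAL1 binds with CLOCK, was in 5 of them: in 4 of the 7 matched genes that rose (Bhlhe41, Ciart, Nr1d1 and Tef), in 0 of the 2 that fell and in 1 of the 9 others, against 7.08% of all genes with a window. The D-box TTATGTAA was in 1 of the 18, Per2, against 0.958% of all genes. The windows of Nr1d1 and Dbp, the clock genes with the smallest p, are shown, with the E-box in capitals, at 191 bases before the start in Nr1d1. They lie in GRCr8 at chr10:84229405-84229704 on the minus strand (Nr1d1, 1 of its 2 RefSeq windows) and chr1:105312006-105312305 on the plus strand (Dbp), each 5′ to 3′ along its gene. The rule that picked between the 2 Nr1d1 windows put the window with the most motifs first.
Nr1d1: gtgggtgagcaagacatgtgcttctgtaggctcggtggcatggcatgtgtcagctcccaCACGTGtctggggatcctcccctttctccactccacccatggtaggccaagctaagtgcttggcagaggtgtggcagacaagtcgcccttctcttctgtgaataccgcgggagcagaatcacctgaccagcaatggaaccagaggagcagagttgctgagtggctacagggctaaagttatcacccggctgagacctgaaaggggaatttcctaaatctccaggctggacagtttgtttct
Dbp: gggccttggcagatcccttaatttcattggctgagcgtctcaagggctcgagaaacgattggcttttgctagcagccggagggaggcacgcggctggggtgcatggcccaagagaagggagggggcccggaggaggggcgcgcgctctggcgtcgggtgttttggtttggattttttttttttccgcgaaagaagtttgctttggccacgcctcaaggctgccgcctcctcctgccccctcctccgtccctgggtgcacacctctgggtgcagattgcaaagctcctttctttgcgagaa
The Dbp window holds neither motif, which says only that these letters are not within it.

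Genes of fetal growth and of ureteric signals were among those that fell. Of 25 fetal growth genes 13 fell and 0 rose (median -0.48 log2; without PND15_Het replicate 2, 16 and 0; with TPM, 20 and 0). Cdkn1c, an imprinted inhibitor of the cell cycle, fell from 144 ± 18.8 to 80.5 ± 21.7 FPKM, Plagl1 to 0.644 times and Igf2bp2 to 0.608 times. In the list of nephron progenitors 4 of 19 fell, among them Cdh6 and Jag1, and 2 rose, Ccnd1 and Eya1 (without PND15_Het replicate 2, 6 fell and 1 rose; with TPM, 10 and 0). Of 17 ureteric genes 4 fell and 2 rose (4 and 2 also without that library; with TPM, 10 and 2). Wnt11, a signal of ureteric tips, was at 6.6, 3.68, 9.14 and 7.91 FPKM and then at 1.10, 2.39, 2.55 and 2.24. Wnt9b, the signal of the ureteric stalk that starts nephrons, was at 8.72, 6.6, 5.26 and 5.73 and then at 0.599, 3.51, 2.32 and 1.10. Both fell without overlap (-1.32 ± 0.24 and -1.49 ± 0.35 log2; limma adjusted p = 0.0025 and 0.0113). The 2 risers of the ureteric list, Calb1 and Slco4c1, are also expressed in mature tubules.

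In the vitamin D, calcium and phosphate list 5 of 19 rose and 2 fell (without PND15_Het replicate 2, 8 and 2; with TPM, 4 and 4). Kl, the coreceptor of the phosphate hormone FGF23, was at 86.3, 72.9, 107 and 94.5 FPKM and then at 146, 132, 139 and 144, higher in every PND21 library (0.64 log2, limma adjusted p = 0.00169), and Slc34a3, a phosphate carrier, rose 1.68-fold. Of 28 glucocorticoid and thyroid targets 4 rose and 4 fell (without PND15_Het replicate 2, 8 and 4; with TPM, 3 and 6). Dio1, which activates thyroid hormone, rose 1.75-fold and Crym, which binds it, 1.91-fold. Angptl4 and Pdk4, given above, were among those of this list that fell. Dusp2 and Myc fell among 25 immediate early genes, and 0 rose (3 fell without PND15_Het replicate 2 and 11 with TPM). None of 31 ribosomal protein genes was called (median 0.07 log2), and also 0 without PND15_Het replicate 2. With TPM 10 fell, near the 33.5% of all genes that fell on that scale. Afp, a protein of fetal liver and yolk sac, was at 1.15, 1.25, 6.16 and 5.55 FPKM and then at 0.107, 0.0419, 0 and 0.0818, the fall of 1 among 6 liver genes (without PND15_Het replicate 2, 2 rose and 1 fell; with TPM, 0 and 2).

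Podocyte genes fell in 8 of 22 and rose in 1, Ptgds (without PND15_Het replicate 2, 9 and 2; with TPM, 16 and 1). Wt1 fell to 0.649 times and Robo2 to 0.572 times. Smooth muscle and mesangial genes fell in 3 of 22 and rose in 0 (without PND15_Het replicate 2, 10 and 0; with TPM, 8 and 0), with Notch3 at 0.613 times. Matrix genes fell in 2 of 35, Col6a1 and Col6a2, and in 15 without PND15_Het replicate 2 (median -0.23 and then -0.43 log2). With TPM 11 fell. Of all genes 7.04% fell, 12.3% without that library and 33.5% with TPM. The matrix genes thus exceeded the share of all genes only without PND15_Het replicate 2. The count of cell cycle genes depended on this library. With it 1 of 43 fell, the inhibitor Cdkn1a, and 0 rose (median -0.02 log2), and without it 25 fell and 0 rose (median -0.39); with TPM 6 fell and 0 rose. Top2a, the topoisomerase of dividing cells, was at 19.3, 3.59, 24.1 and 21.3 FPKM and then at 12.4, 14.4, 16.5 and 12.8, so that the ages overlapped through replicate 2 alone (-0.02 log2, limma adjusted p = 0.981; -0.59 without it, adjusted p = 0.0033).

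**Figure D3:**
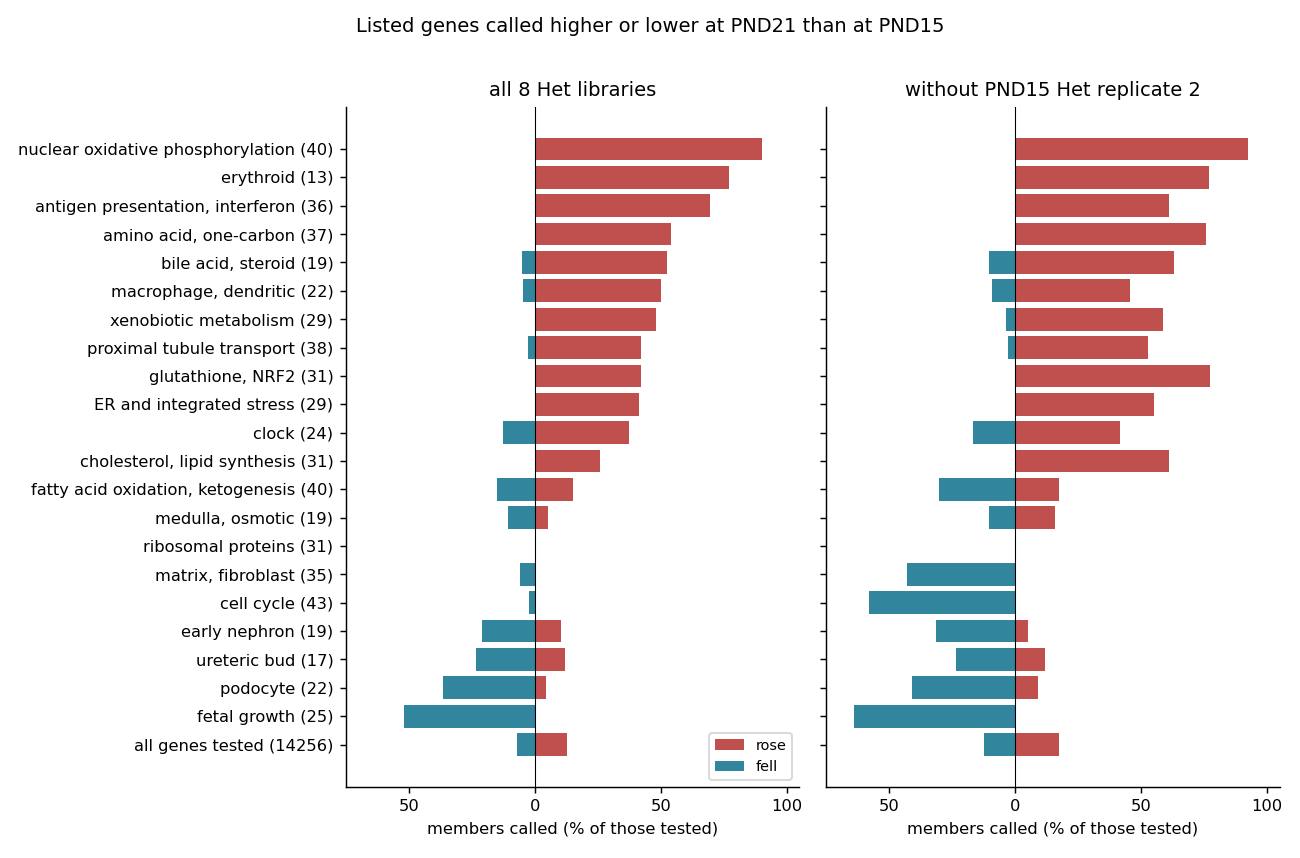
Share of the tested members of each list that rose (red, to the right) or fell (blue, to the left) from PND15 to PND21, in percent, with all 8 Het libraries (left) and without PND15_Het replicate 2 (right); the number tested is in parentheses. The lowest bar gives all 14256 genes (12.9% rose and 7.04% fell), and cell cycle and matrix genes are the lists with the most added falls on the right, 25 of 43 against 1 and 15 of 35 against 2.

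The same ages in WT gave 2558 called genes (17.9%; 11.4% higher at PND21). Of these 1517 were also called in Het, 53.5% of the Het calls and 59.3% of the WT calls, and 2745 of the 2838 Het genes (96.7%) had the same sign in WT, against 75.9% of all genes tested. The change in Het differed from that in WT in 0 genes (0% called; limma, smallest adjusted p = 0.864); 769 genes (5.39%) had an unadjusted p under 0.05, and voom on the recovered reads also called 0. The unadjusted 95% interval of this difference reached a median of 0.34 log2 to each side. This width is not the limit of detection, because a call also needed to pass the adjustment over all genes tested. Larger differences went uncalled, such as 2.52 log2 in Selenbp1 and 0.58 in Manf. The absence of calls therefore does not exclude differences above 0.34 log2. Slc51a rose by 2.62 log2 in both genotypes (difference from -1.10 to 1.10), Gclc by 1.26 and 1.53 (difference -0.94 to 0.41) and Hba1 by 1.99 and 1.2 (difference -0.27 to 1.86).

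Some genes with an unadjusted 95% interval that excludes 0 are given as values only, chosen after their values were seen. None passed the test. An unadjusted p under 0.05 was reached by 5.39% of all genes (limma), close to the share expected where no gene differs. Selenbp1 averaged 28.2 FPKM in WT at PND15 and 52.1 at PND21, so that Het differed from WT in the change by 2.52 log2 (95% interval 0.92 to 4.12; limma adjusted p = 0.864). Wnt9b went from 17.8 to 1.17 FPKM in WT, and its change differed by 1.61 log2 (0.50 to 2.72). For Manf, 89.8 and 90.9 FPKM in WT, the difference was 0.58 log2 (0.23 to 0.94), and for Sdf2l1 0.67 log2 (0.21 to 1.12). In WT 1 of the 29 genes of endoplasmic reticulum stress and the integrated stress response rose, against 12 in Het. This difference in counts was not tested as such. A score placed each library on the course of WT genes called between these ages with a change of at least 0.5 log2 (890 higher and 617 lower). It was 0 at the WT mean of PND15 and 1 at that of PND21. The score was 0.318, 0.584, 0.152 and 0.149 in the PND15_Het libraries and 0.912 to 1.02 at PND21_Het. The WT libraries that define it lay at -0.122 to 0.0918 and 0.866 to 1.10. PND15_Het replicate 2 thus lay nearest to PND21 among its age.

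**Figure D4:**
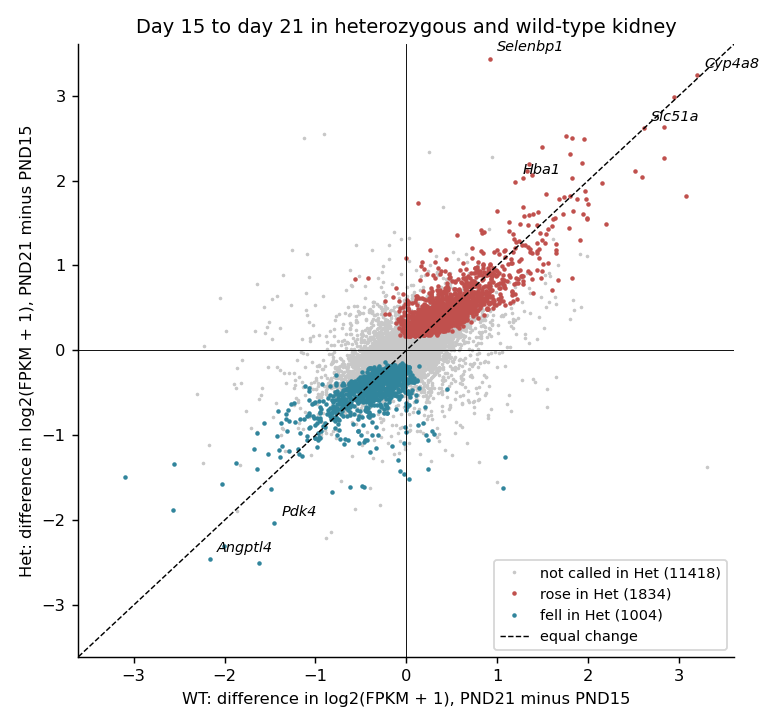
Difference in log2(FPKM + 1), PND21 minus PND15, in Het (vertical axis) and WT (horizontal axis) for each gene tested, coloured where called in Het (1834 rose, 1004 fell); the dashed line marks equal change. Slc51a lies on the line at 2.62 in both, and Selenbp1 above it (3.44 in Het and 0.92 in WT), without passing the test of the difference.

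Among animals of 1 age the spread was widest in genes whose FPKM was far higher in some libraries than in others, down to 0 in some. How reads were assigned to these genes was not tested. Ucp1, the uncoupling protein of brown fat, was at 0, 63.4, 5.21 and 40.3 FPKM at PND15 and at 0, 10.2, 0.354 and 26.6 at PND21, and Cidea, a lipid droplet protein of the same tissue, at 0.493, 54.1, 3.30 and 54.0 and then at 1.04, 5.96, 2.46 and 13.9. The same libraries were high in both genes, replicates 2 and 4 of each age. Of the 14 fat tissue genes 1 rose, Cidec, and 0 fell (without PND15_Het replicate 2, 1 and 0; with TPM, 0 and 1). Other genes did not follow this order: Nfs1, the cysteine desulfurase of iron-sulfur clusters, was at 34.6, 37.0, 0.936 and 1.14 FPKM at PND15, and Ndufa1, a subunit of complex I, at 0.949, 0, 25.4 and 128. Mif, a cytokine, was at 364 FPKM in PND15_Het replicate 1 and at 6.26 to 9.59 in the other 7 libraries.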

How the data were processed

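Poly-A RNA of kidney cortex, 1 library per animal, was sequenced by the authors. The table they deposited gives the FPKM of each gene in each library; the tools, named without roles per the submitters' processing notes, were featureCounts 1.5.0-p3, StringTie 1.3.3b, HISAT2 2.0.5 and fastp. Genome build and strandedness are not stated there, so overlapping and antisense genes cannot be told apart. In 100% of values FPKM times gene length and a size particular to each library gave whole reads (tolerance 0.01). That size was 0.930 to 0.975 of the reads counted in the PND15_Het libraries and 0.833 to 0.877 in PND21_Het, so the deposited values held a composition scaling that lifts FPKM at PND21.

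Groups followed the source names in the labels. Genes with at least 1 FPKM in 3 of the 8 Het libraries entered a limma fit (version 3.58.1, with R 4.3.3 and statmod 1.5.0) of log2(FPKM + 1), with 1 mean for each of the 4 Het and WT groups (15 libraries), trended and robust empirical Bayes and Benjamini-Hochberg adjustment over 14256 genes; the steps were tested on simulated data. Rose, fell and changed are used for genes with an adjusted p under 0.05. The 3 single values (Xdh, mitochondrial and globin shares) had two-sided exact permutation tests.

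Of 1302 entries in 44 gene lists, written from general knowledge, 1250 were matched and 1047 tested. Members and lists were chosen with earlier results of these data known. Named by rule were Xdh, Gclc, Slc51a and Hba1, the 12 largest changes per direction (symbol, at least 5 FPKM in the higher group, no overlap), in each list the called members of smallest p (at most 4), and the 6 genes of widest spread per age. Other genes, such as the only member of a list to change, markers and examples of a list, were named after their values were seen.

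Alternatives changed the pseudocount (0.1), the filter (none, or a mean of 5 FPKM or more), the scaling (TPM, median ratios), the model (array weights, or voom run on the reads recovered) and the libraries in the fit, with each library left out in turn. The list counts without PND15_Het replicate 2 and with TPM, and the position on the WT course, were added after seeing the data. Some genes are not reported here.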

Additional observations from a re-analysis of the deposited data

Results flagged for a closer look

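In 24 of the 292 groups of 4 libraries examined, 1 library lay far from the other 3 relative to their whole range. Chance gives about 1 in 20 for groups not chosen by their spread. Some genes here were named for their wide spread between libraries, Mif, Polr2i, Nhp2 and Scd1 among them, so the 24 are not read against that rate. PND15_Het replicate 2 accounts for 7 of them: Dcdc2 at 9.92 FPKM, S100g at 39.2, Gsta2 at 34.1, Slc22a25 at 55.7, Gstt1 at 31.7, Slc9a3r1 at 385 and Dnase1 at 111. All 7 genes were still called without this library.

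PND15_Het replicate 1 stood apart with Selenbp1 at 12.5 FPKM, Gpnmb at 3.13, Klk1c9 at 67.5, St6gal1 at 64.2, Cd74 at 184 and Mif at 364, and PND15_Het replicate 4 with Polr2i at 19.9 and Nhp2 at 39.8. At PND21 the libraries apart were replicate 1 for Ndufb10 (184 FPKM), Ppp1r1b (10.9) and Polr2i (36.9), replicate 2 for Pnp (133) and the mitochondrial share (11.8% of reads), replicate 3 for Entpd5 (114) and Cdh6 (16.2), and replicate 4 for Mest (11.6) and Scd1 (36.1).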

How the results depend on the processing

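The count of 2838 genes changed from PND15 to PND21 in Het was 5347 with TPM, 4446 with array weights and 1700 with only the 8 Het libraries, and stayed within 1.5 times the main count with the other pseudocount (0.1), both other filters, median ratios, voom, all 44 libraries and all PND15 and PND21 libraries. Leaving out each library gave 1697 to 4226. Of the single libraries, PND15_Het replicate 4 (1697), PND21_Het replicate 2 (1745) and PND15_Het replicate 3 (1788) lowered it by over 1.5 times, and PND15_Het replicate 2 (4226) raised it. The test of the Het change minus the WT change called 0 genes under each of these that held WT libraries. Of 133 genes named by rule and called, 104 kept call and direction under each of 18 alternatives. Of the called genes the report names, Atp6v1g3, C1qa, Ccnd1, Cidec, Eya1, F3, Hspa5, Ndufb10, Nkg7, Per2, Pnp, Slc22a12, Slc34a1 and Tmem213 were not called with TPM, and Cry1, Eya1, Kng1l1, Nkg7 and Slc34a1 were not called without PND15_Het replicate 2.

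The difference in Xdh was -0.0023 log2 with TPM. The gain in mitochondrial share was 2.37 percentage points as a share of summed FPKM and 1.69 to 2.37 with a library left out, and that in globin share 0.398 to 0.475 with a library left out (adjusted exact permutation p = 0.0857 for each left-out library, since 3 against 4 cannot go below 0.0571). Among genes named by rule, signs changed in genes that were not called. Ndufa1 was -0.0824 log2 with TPM, -0.8934 with array weights and -0.9427 to 1.3944 with a library left out, and Polr2i -0.391 with array weights and -0.8761 to 1.2492. With a library left out Mif ranged from -1.768 to 0.1154, Car3 from -1.4259 to 0.2296, Nhp2 from -0.0554 to 1.7292 and Thrsp from -0.2086 to 1.2328. The cause of these changes was not tested. No paired analysis was possible because the labels carry no replicate numbers that tie animals of the 2 ages, and the numbers used here follow the order of the records.

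The comparison is limited by 4 animals per age with unknown litters, 1 library that stands apart, and bulk tissue. The balance of rises and falls also depends on the scaling chosen.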
